A study of Mus musculus with 4 samples.

Results

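The cells described here are the CD4 conventional T cells of 2 tumour libraries, 145 of 452 cells in all. The members were chosen by 4 measured values: a cell was counted when its deposited Cd4 value was above 0, above its Cd8a value and above its Cd8b1 value, and its Foxp3 value was 0. The vehicle library held 55 such cells among 155 (35.5%, exact Clopper-Pearson 95% interval 27.97 to 43.6) and the ATT-I library 90 among 297 (30.3%, 25.1 to 35.9). Single-cell RNA was sequenced from tumours that the mouse colon carcinoma line MC38 formed after orthotopic implantation into C57BL/6 mice. The series concerns ATT-I (Atractylenolide I, a plant sesquiterpene lactone), antigen presentation by tumours and treatment with PD-1 antibodies. ATT-I was dosed daily at 50 mg/kg, and neither of the groups compared here received anti-PD-1 antibody. The control group is named vehicle control in the treatment protocol but "No treatment" in its own sample entry, whose title is WT. The group is called vehicle here.

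Each group was a pool of 5 tumours collected 2 weeks after treatment began and run as 1 droplet library, so the tumours of a pool cannot be told apart. Apart from the WT title of the control no genotype is given, nor are ages, sexes or alleles, and the labels name no sort or gate. With 1 library per group there was no test, and every difference below is between these libraries. All 95% intervals cover counting error only. They cover neither the spread between mice nor the further spread between cells. The anti-PD-1 and combination libraries held 981 and 39 cells that met the same rule, and they are not compared here.

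CD4 conventional T cells are helper cells: a T cell receptor that reads peptides on MHC class II starts a burst of AP-1, NFAT and NF-kappaB transcription, and cytokines acting through JAK kinases and STAT factors then set which helper programme follows. T helper 1 cells make interferon gamma, follicular helper cells depend on Bcl6, and regulatory cells, marked by Foxp3, hold the others in check. Cells that have not been stimulated recently keep the transcription factors Klf2 and Tcf7, which go with recirculation and self-renewal, and cells that stay in a tumour express receptors for adhesion and retention.

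The members carried the T cell receptor complex in both libraries. A UMI (a unique molecular identifier, which counts 1 captured transcript) of Cd3e, a subunit of that complex, was found in 49 of 55 vehicle cells (89.1%) and 85 of 90 ATT-I cells (94.4%). The mean Cd4 level, which the rule used, was 4.57 UMIs per 10000 UMIs of the cell in vehicle and 4.10 in ATT-I. All 16 genes of a T cell identity list were measured well enough to compare, and their median log2 ratio was -0.12. Just inside the rule, 10 vehicle and 27 ATT-I members held a single Cd4 UMI. Just outside it, 5 vehicle and 4 ATT-I cells held a single Foxp3 UMI beside Cd4, and 4 and 5 cells held Cd8a or Cd8b1 at or above Cd4. A Cd8a or Cd8b1 UMI below Cd4 was found in 9 vehicle (16.4%) and 5 ATT-I members (5.56%).

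Foxp3 can be missed in shallow cells, so some members may be regulatory cells whose Foxp3 was not captured. Among all Cd4-positive cells of the libraries, a Foxp3 UMI was found in 25.7% of vehicle and 16.7% of ATT-I cells, and in 18.7% and 11.1% after each cell was thinned to 4000 UMIs. Ikzf2 (Helios), which regulatory and some activated T cells express, had a UMI in 58.2% of vehicle and 37.8% of ATT-I members. After thinning these shares were 42.8% and 32.6%. The part of such cells in the results was not tested beyond some repeats without the members that held an Ikzf2 UMI. These repeats cover the share of member cells, the counts of higher and lower genes, the list medians and the ratios of 104 genes. The share of members with a Mki67 UMI and the splits by Mki67 and by depth were not repeated in this way.

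Member cells were deeper in vehicle than in ATT-I, with a median of 7673 UMIs (range 2031 to 52085) and 2627 genes against 5567 UMIs (1864 to 57131) and 1779 genes. Over all cells of the libraries the medians were 16129 and 6828 UMIs, and the libraries shared 0 cell barcodes. RNA of other cells differed as well. Haemoglobin and related red blood cell transcripts came to 7 UMIs in 6 of 55 vehicle cells but to 1295 UMIs in 90 of 90 ATT-I cells. Hbb-bs, the adult beta globin, averaged 0.061 UMIs per 10000 in vehicle and 12.4 in ATT-I members, and it was found in 4.26% of vehicle and 99.0% of ATT-I CD8 cells, which like CD4 cells should lack it. Fibroblast markers gave 53 UMIs in 14 vehicle cells and 90 UMIs in 44 ATT-I cells, with 9 of 11 markers at 0 in vehicle and 1 of 11 in ATT-I. Of 479 epithelial marker UMIs in ATT-I members, 469 came from 1 cell of 57131 UMIs that held 4 Cd3e and 1 Cd4 UMIs, while vehicle members held 14 in all. NK cell markers summed to 353 UMIs in vehicle and 328 in ATT-I, with 6 of 14 and 9 of 14 markers at 0. Their highest cell stood at 149.4 UMIs per 10000 in each library. Myeloid markers summed to 87 and 105 UMIs. The part of this foreign RNA in the results was not tested beyond the repeats without such cells.

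Levels are given as UMIs per 10000 UMIs of a cell, averaged over the cells of a library, and the ratio of a gene is the log2 of the ATT-I level over the vehicle level. Genes were compared if 10% or more of the cells in 1 of the libraries held a UMI and the total was 20 UMIs or more, and they are called higher or lower in ATT-I from a 1.5-fold difference in level upwards. Of 6552 genes compared, 520 were higher (7.94%) and 2343 lower (35.8%), and the median gene had a log2 ratio of -0.32. Relative to that median, 18.1% were higher and 20.5% lower. Counts of list genes are given on the first scale unless the second is named. Of 104 genes past 1.5-fold that were repeated under other settings, 52 were under it in at least 1 repeat. Most of the 104 were chosen because their interval excluded 0. Outside the ribosomal, histone, mitochondrial and marker lists, 23 of 44 higher and 45 of 90 lower list genes had such an interval, and most others were not repeated. The repeats meant by short names are summed UMIs (deep cells weigh more), the shared depth range (38 vehicle and 53 ATT-I cells), cells without Ikzf2 (23 and 56), cells without stromal markers (no fibroblast, epithelial or endothelial UMI, 21 and 34), the vehicle share of Mki67 (ATT-I cells weighted to it), reduced totals (no ribosomal, mitochondrial or histone genes) and like span.

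Ratios went with the length of the gene on the chromosome. Protein-coding genes were put into 5 groups of equal size by span. The shortest group (0.204 to 8.066 kb) had a median log2 ratio of 0.005, and the longest group (64.307 to 1503.5 kb) a median of -0.72. The same order was seen in members without a Mki67 UMI (0.06 to -0.74) and with one (0.17 to -0.74), and also in CD8 cells (0.01 to -0.66) and in CD4 cells with Foxp3 (0.16 to -0.73) of these libraries. Of all protein-coding genes in the 2 longest groups, 4.83% and 2.88% were higher and 46.1% and 59.7% lower. In the shortest group 15.03% were higher and 14.5% lower. Leaving out the ribosomal, histone, mitochondrially encoded and cell marker lists, 7 of the 44 higher list genes lie in the 2 longest groups, against 38 of the 90 lower ones. The shares above show this contrast over all protein-coding genes, so it is not particular to the list genes. Relative to genes of the same span group, 50 of 89 lower genes with an annotated span stayed at least 1.5-fold lower. Of the 44 higher genes 43 stayed higher, which was nearly fixed in advance. The subtracted group medians run from 0.005 to -0.72, so a ratio is raised, or is lowered by 0.005 at most. The 43 is therefore no check of the higher genes. What sets this relation to length was not tested, and it is named below where it ends a gene's call.

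**Figure D1:**
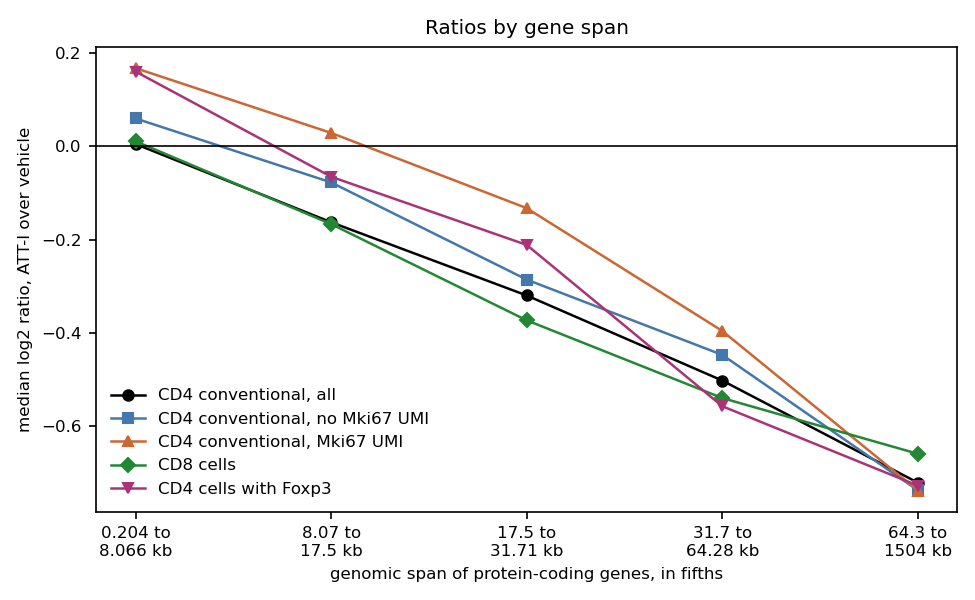
Median log2 ratio of ATT-I over vehicle (vertical axis) for protein-coding genes in 5 equal groups of genomic span in kb (horizontal axis), with 1 line per cell class of the same libraries. In all 5 lines the median decreases from the shortest to the longest genes, reaching -0.72 in the CD4 conventional cells.

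A smaller share of ATT-I members carried transcripts of dividing cells. A UMI of Mki67, a protein of dividing cells, was found in 26 of 55 vehicle members (47.3%, 33.7 to 61.2) and in 17 of 90 ATT-I members (18.9%, 11.4 to 28.5). After thinning every cell to 4000 UMIs, which 52 and 74 cells reach, the shares were 34.2% and 15.5%. Top2a, the topoisomerase that untangles replicated DNA, had a UMI in 52.7% of vehicle and 23.3% of ATT-I members, and in 41.2% and 22.02% after thinning. CD8 cells had a Mki67 UMI in 91.5% and 40.0%. Of 37 G2 and mitosis genes compared, 0 were higher and 19 lower in ATT-I, with a median log2 ratio of -0.59. Cenpe, a kinetochore motor, went from 0.86 in vehicle to 0.158 in ATT-I (log2 ratio -2.44, 95% counting interval -3.48 to -1.09), and Cenpf, another kinetochore protein, from 1.36 to 0.391 (-1.801, -2.38 to -1.06). Pcna, the sliding clamp of DNA polymerase, averaged 1.33 and 0.707 (-0.91, but -0.44 in the shared depth range and -0.29 at the vehicle share of Mki67).

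Within the cells that held a Mki67 UMI the list medians had the other sign. There 16 of 39 G2 and mitosis genes were higher and 4 lower in ATT-I (median 0.50), and 12 of 25 G1 and S phase genes higher and 1 lower (median 0.57), where 15% of all 4799 genes compared were higher and 32.3% lower (22.6% and 25% relative to their median gene). Cenpe (-1.85) and Cenpf (-0.65) stayed below 0 there. With the ATT-I cells weighted to the vehicle share of Mki67-positive cells, the G2 and mitosis median over all members was 0.42, and in cells without Ikzf2 it was 0.21 over 8 genes. Members with a Mki67 UMI had a median depth of 12299 UMIs in vehicle and 14277 in ATT-I, and the others 6912 and 4970. Those 17 ATT-I cells include the one with epithelial transcripts. Values for cells without and with a Mki67 UMI are given below for some genes only.

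Genes of the immediate early response were higher in ATT-I. Of 23 such genes compared, 9 were higher and 1 lower (15 and 0 relative to the median gene), 19 had a ratio above 0, and their summed level went from 95.5 to 119.9 UMIs per 10000. Fos, an AP-1 subunit induced within minutes of stimulation, ran from 0 to 10.2 UMIs per 10000 over vehicle cells with a median of 0, and from 0 to 45.7 with a median of 2.32 over ATT-I cells. The ranges overlap, and the high cells are ATT-I cells. The mean Fos level was 1.38 in vehicle and 5.52 in ATT-I, a log2 ratio of 1.998 (95% counting interval 1.503 to 2.44), with 1.91 in cells without and 1.73 in cells with a Mki67 UMI. A Fos UMI was found in 40.0% and 71.1% of cells, and in 31.9% and 57.5% after thinning. Jun, its dimer partner, averaged 3.42 and 8.42 (1.30, 0.98 to 1.60), with 0.585 in the shared depth range and 0.78 in cells without Ikzf2.

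Other genes of the list follow. Dusp1, a phosphatase of MAP kinases, averaged 3.90 in vehicle and 6.45 in ATT-I (log2 ratio 0.73), but its ratio was 0.37 in cells without stromal markers, 0.55 at the vehicle share of Mki67, and 0.19 in cells up to 6809 UMIs. Dusp2, a related phosphatase, averaged 1.23 and 2.38 (0.96), but its ratio was 1.08 in cells without and -0.75 in cells with a Mki67 UMI, 0.57 in the shared depth range and 0.54 at the vehicle share of Mki67. Tsc22d3, a glucocorticoid-induced leucine zipper protein, averaged 0.962 and 1.97 (1.04), and Rhob, a small GTPase with an immediate early promoter, 0.432 and 0.899 (1.06). Zfp36l1, which destabilises AU-rich mRNAs, was the lower member at 3.23 and 2.10 (-0.62, but -0.52 without the highest cell of each library, -0.51 in cells without Ikzf2, -0.43 with reduced totals and -0.24 in cells without stromal markers). Junb, an AP-1 subunit of activated T cells, stayed below 1.5-fold at 13.2 and 17.7 (0.42). CD8 cells of the same libraries showed Fos at 0.639 and 2.85 (2.15) and Jun at 4.64 and 7.13 (0.62).

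The promoters of Fos and Dusp1 are shown because most of the list had ratios above 0 and both hold a cyclic AMP response element, written here as TGACG or, for the full palindrome, TGACGTCA. Both are 250 bases before an annotated start, 5′ to 3′ on the gene's strand, from RefSeq on GRCm38.p6, and the capitals mark every TGACG on either strand. The Fos promoter lies on the plus strand at chr12:85473640-85473889, with matches beginning 129 and 66 bases before the start, and the Dusp1 promoter on the minus strand at chr17:26508473-26508722, with TGACG 191 bases before it and the palindrome 143 bases before it.
Fos: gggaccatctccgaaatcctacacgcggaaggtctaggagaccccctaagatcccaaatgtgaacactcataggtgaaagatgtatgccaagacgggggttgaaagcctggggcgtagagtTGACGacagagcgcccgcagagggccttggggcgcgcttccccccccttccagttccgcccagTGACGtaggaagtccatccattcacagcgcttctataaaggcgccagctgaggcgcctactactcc
Dusp1: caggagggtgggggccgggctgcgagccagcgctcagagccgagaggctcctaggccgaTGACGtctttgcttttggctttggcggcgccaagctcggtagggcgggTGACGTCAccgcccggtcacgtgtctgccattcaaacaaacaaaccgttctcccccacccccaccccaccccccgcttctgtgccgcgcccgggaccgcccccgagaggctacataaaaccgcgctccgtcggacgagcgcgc
Searched on both strands in the 250 bases, TGACG was found in 8 of 23 promoters of the 21 listed genes that matched the table (34.8%), against 17.8% of all 32851 promoters. TGACGTCA, which contains TGACG, was in 2 of 23 (8.7%) against 1.55%, and the AP-1 motif TGANTCA in 1 of 23 (4.35%) against 6.75%. A match describes these letters only.

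Some genes of the resting and recirculating state were higher as well, mainly in cells of low depth, as the split by depth below gives. Of 16 genes compared from that list, 5 were higher and 1 lower in ATT-I (10 and 1 relative to the median gene), with a median log2 ratio of 0.40. Klf2, which keeps T cells quiescent and drives the receptors for leaving tissue, ran from 0 to 23.6 UMIs per 10000 with a median of 0 in vehicle, and from 0 to 63.9 with a median of 1.74 in ATT-I. Its mean was 1.14 and 5.64 (log2 ratio 2.31, 1.77 to 2.79), and 25.5% and 57.8% of cells held a UMI. Most vehicle cells are at 0 and most ATT-I cells are not. Klf2 was at 2.80 in cells without and 1.55 in cells with a Mki67 UMI.

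Other members of the group rest on fewer UMIs. Tcf7, the factor of self-renewing memory and precursor cells, averaged 0.516 and 1.02 (log2 ratio 0.98, 0.04 to 1.8002, but 0.07 in cells above 6809 UMIs and 0.48 in cells without Ikzf2). Igfbp4, a binding protein of insulin-like growth factors found in naive T cells, averaged 0.138 and 1.14 (3.05, 1.202 to 4.60), but 1 cell held 50.9% of its 57 UMIs in ATT-I and 1 cell held 83.3% of its 6 UMIs in vehicle. Ccr7, the receptor for entry into lymph nodes, averaged 0.153 and 0.501 with an interval that includes 0 (1.71, -0.07 to 3.12). Bach2, a repressor that keeps T cells from differentiating, was the lower one at 0.38 and 0.115 (-1.72, -3.87 to 0.16, but 0.57 in cells without stromal markers).

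**Figure D2:**
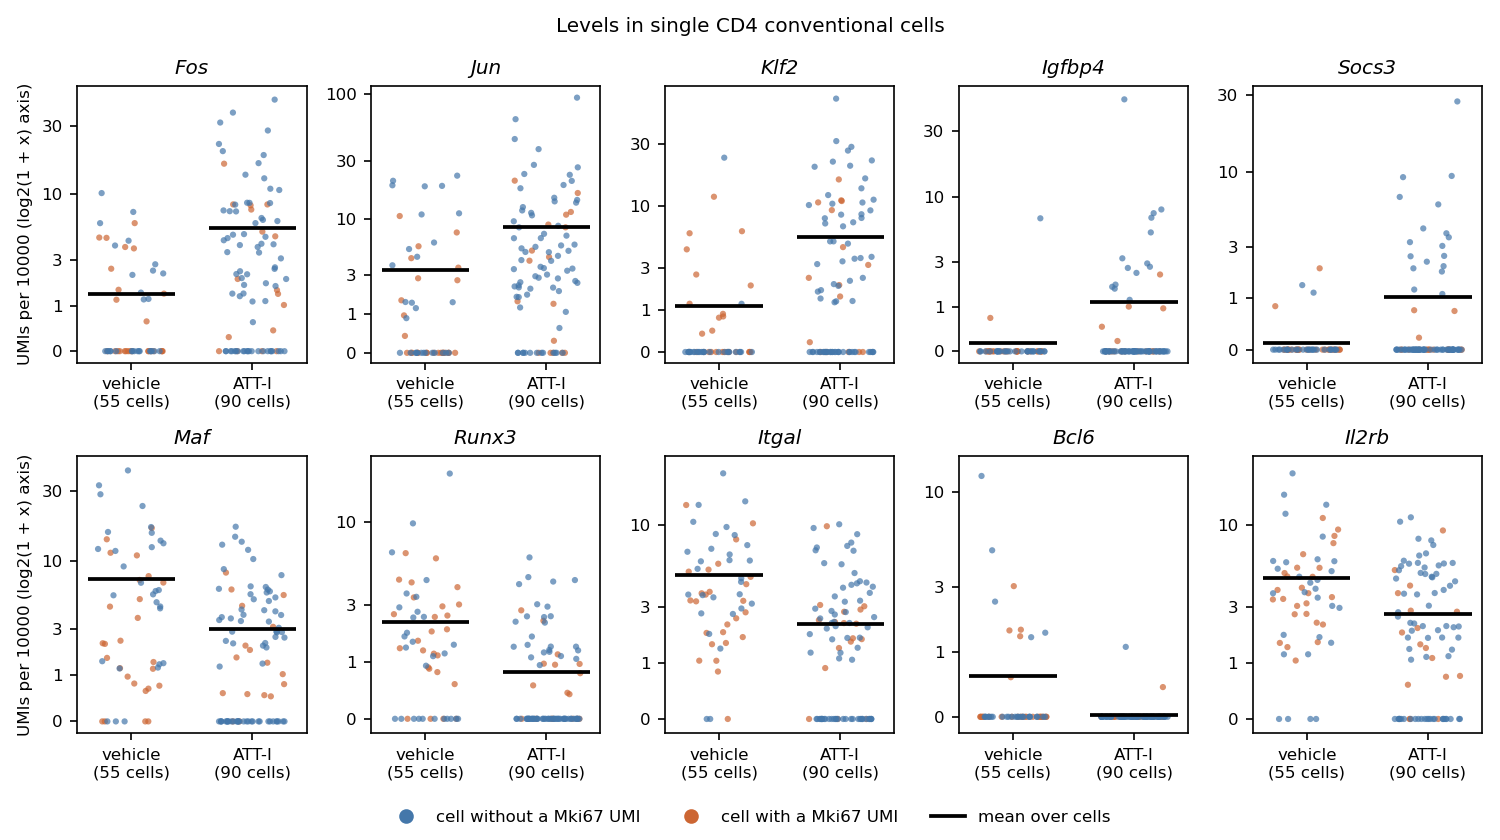
Levels of 10 genes in each CD4 conventional cell, in UMIs per 10000 on a log2(1 + x) axis, for the 55 vehicle and 90 ATT-I cells; colours mark cells without and with a Mki67 UMI, and the bar is the mean over cells. The upper genes reach higher in ATT-I cells, as Fos does with a highest cell of 45.7 against 10.2, and the lower genes reach higher in vehicle cells, as Maf does with 41.4 against 17.3.

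Among cytokine signalling genes the inhibitors Socs1, Socs2 and Socs3 passed 1.5-fold upwards and Cish, a related inhibitor, did not (-0.48), while the lower genes were receptors, a kinase, STAT factors and Bcl3. Of the 3 higher genes only Socs3 had an interval above 0. Socs3, which binds gp130 and JAK kinases and ends their signal, had 7 UMIs in vehicle and 45 in ATT-I, with a highest cell of 1.99 and 27.3 UMIs per 10000. The mean Socs3 level was 0.0969 and 1.04 (log2 ratio 3.43, 1.25 to 4.99). Its ratio was 3.85 in cells without and -0.23 in cells with a Mki67 UMI, and 0.28 in cells above 6809 UMIs. The -0.23 and the 0.28 rest on fewer UMIs than the limit for comparison, so no direction is read from them. The 7 vehicle UMIs are divided between cells without and with a Mki67 UMI, so the 3.85 also rests on few vehicle UMIs. A Socs3 UMI was found in 7.27% and 23.3% of cells, and in 3.68% and 14.1% after thinning. The cells above the highest vehicle cell are ATT-I cells without a Mki67 UMI. Socs1, the related inhibitor of interferon signals, averaged 0.869 and 1.31 (0.59, -0.15 to 1.27), at 0.86 in cells without and -2.38 in cells with a Mki67 UMI. It was under 1.5-fold in 6 repeats, from 0.58 relative to like span to -0.0046 in cells without stromal markers. Socs2, a feedback inhibitor of STAT5 signals, had a ratio of 0.85 (1.18 without and -0.95 with a Mki67 UMI), but one of -0.23 in the shared depth range, 0.32 on summed UMIs and 0.45 in cells without Ikzf2 and at the vehicle share of Mki67.

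This list gave 3 higher and 6 lower of 17 genes compared (median -0.48), a lower share near that of all genes. Il2rb, the beta chain of the IL-2 and IL-15 receptors, ran from 0 to 19.7 with a median of 3.77 in vehicle and from 0 to 11.03 with a median of 1.98 in ATT-I. Its mean was 4.67 and 2.65 (-0.82, -1.18 to -0.46). Stat3, the main factor downstream of gp130, averaged 2.50 and 1.36 (-0.88, but -0.50 in cells without stromal markers and -0.38 relative to like span), and Stat5a, which carries the IL-2 signal, 1.06 and 0.508 (-1.06, but 0.0094 in cells without stromal markers). Jak1, the kinase shared by these receptors, averaged 3.00 and 1.91 (-0.66), but its ratio was 0.066 relative to like span, 0.046 in cells without stromal markers and -0.47 with reduced totals. In cells with a Mki67 UMI 10 of 13 genes of the list were lower and 0 higher (median -1.10), and in the others 6 of 15 lower and 3 higher (median -0.50).

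The promoter of Socs3 is shown because STAT factors bind the spaced palindrome TTCNNNGAA, which capitals mark here. It is the 250 bases before an annotated start on the minus strand at chr11:117969367-117969616 (RefSeq, GRCm38.p6), and the match begins 154 bases before that start.
Socs3: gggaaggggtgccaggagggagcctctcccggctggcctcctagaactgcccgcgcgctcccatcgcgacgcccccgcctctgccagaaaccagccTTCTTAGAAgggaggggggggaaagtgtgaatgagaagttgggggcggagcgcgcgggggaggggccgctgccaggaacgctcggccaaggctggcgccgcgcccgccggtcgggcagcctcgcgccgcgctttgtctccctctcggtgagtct
The motif was found in 1 of 18 promoters of the 15 matched genes of the list (5.56%) and in 7.02% of all promoters of that length, and it reads the same on both strands.

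Of 19 T helper 1 genes compared, 1 was higher and 8 lower in ATT-I (4 and 3 relative to the median gene), with a median log2 ratio of -0.48. The lower share is near the 35.8% of all genes, and the signature cytokine was not among the lower genes. Ifng, interferon gamma itself, averaged 1.22 in vehicle and 1.39 in ATT-I (0.19, -0.47 to 0.83), and Tbx21, which encodes the master factor T-bet, 0.448 and 0.299 (-0.58, -1.85 to 0.61). Runx3, a partner of T-bet, ran from 0 to 18.9 with a median of 1.47 in vehicle and from 0 to 6.16 with a median of 0 in ATT-I. The mean Runx3 level was 2.26 and 0.773 (-1.55, -2.21 to -0.88), at -1.56 without and -1.72 with a Mki67 UMI. Most vehicle cells held Runx3 and most ATT-I cells did not (72.7% and 38.9% with a UMI, or 46.9% and 23.4% after thinning).

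Chemokine receptors of the T helper 1 list differed in direction. Cxcr6, a receptor of tumour-resident cells, averaged 5.88 and 3.45 (-0.77, but -0.43 in cells above 6809 UMIs), whereas CD8 cells of the same libraries had 2.69 and 3.74 (0.47). Cxcr3, which reads CXCL9 and CXCL10, averaged 0.998 and 1.57 (0.66, 0.02 to 1.23, but 0.55 on summed UMIs and 0.13 in cells without stromal markers). Id2, an inhibitor of E proteins that effector cells need, averaged 12.2 and 7.63 (-0.68, -0.88 to -0.48, but -0.51 with reduced totals). Csf2 (GM-CSF) averaged 2.13 and 1.17 (-0.86), with opposite signs in cells without (0.39) and with a Mki67 UMI (-1.64), at -0.22 without the highest cell of each library, at -0.55 on summed UMIs, at 0.39 in cells without Ikzf2 and at 0.59 in cells without stromal markers.

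Genes of the other helper programmes were few. Of the T helper 2 list 4 of 11 genes were compared and 0 passed 1.5-fold, with Gata3, its master factor, at 1.37 and 1.58 (0.20, -0.40 to 0.78). The T helper 17 list gave 3 of 12, of which Rora, a nuclear receptor, was lower at 4.36 and 2.33 (-0.90, but 0.11 in cells without stromal markers and -0.18 relative to like span), and Stat3 is given above.

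The follicular helper list held genes of both directions. Bcl6, its defining repressor, had 30 UMIs in 18.2% of vehicle cells and 2 UMIs in 2.22% of ATT-I cells (0.55 and 0.0165 UMIs per 10000, log2 ratio -5.06, -8.76 to -1.16), with 9 of the vehicle UMIs in 1 cell. Maf, a factor of follicular, IL-10 and IL-21 producing helper cells, ran from 0 to 41.4 with a median of 4.56 in vehicle and from 0 to 17.3 with a median of 2.06 in ATT-I. The mean Maf level was 7.34 and 2.95 (-1.31, -1.63 to -0.998), at -1.73 without and -0.83 with a Mki67 UMI. In CD8 cells, which largely lack Maf, its level was 0.107 and 0.0652. Slamf6, a receptor of progenitor cells, was higher at 0.685 and 1.40 (1.03, 0.25 to 1.71, but 0.12 in cells above 6809 UMIs and 0.40 on summed UMIs). Of 10 genes compared 1 was higher and 3 lower with a median of 0.19, and Cxcr5, the receptor that leads into follicles, held 0 and 2 UMIs.

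Of 12 co-inhibitory receptors and ligands compared, 0 were higher and 5 lower (median -0.27), and the median lies near that of all genes. Pdcd1, which encodes PD-1, averaged 2.15 and 2.74 (0.35, -0.10 to 0.78), and Ctla4 2.60 and 2.44 (-0.09, -0.52 to 0.33). Lag3, which binds MHC class II, averaged 1.32 and 0.763 (-0.79, but 0.50 in cells without Ikzf2 and 0.29 in cells without stromal markers), and Havcr2, which encodes TIM-3, 0.745 and 0.296 (-1.33, -2.42 to -0.23). Cd200r1, an inhibitory receptor for CD200, averaged 1.67 and 0.926 (-0.86, but -0.53 relative to like span). Lag3 and Havcr2 were close to level in cells with a Mki67 UMI (-0.08 and -0.21) and lower in the others (-1.22 and -1.91).

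Regulatory T cell genes other than Foxp3 gave 0 higher and 3 lower of 11 compared (median -0.21). Il2ra, the high-affinity IL-2 receptor chain, averaged 1.06 and 0.515 (-1.04, -1.83 to -0.26), at -2.39 in cells with a Mki67 UMI and -0.01 in the others, and at 0.51 in cells without Ikzf2, 0.82 in cells without stromal markers, -0.51 in the shared depth range and -0.54 relative to like span. Tnfrsf4 (OX40) averaged 6.42 and 7.43 (0.21) and Tnfrsf18 (GITR) 8.63 and 8.08 (-0.09), both costimulatory receptors that activated helper cells share.

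Activation genes gave 4 higher and 3 lower of 20 compared (median -0.07). Egr1, an immediate early factor downstream of ERK, averaged 1.83 and 2.81 (0.62, 0.14 to 1.08), at 0.07 in cells without and 1.65 in cells with a Mki67 UMI, at 0.12 in cells without Ikzf2 and at 0.18 in the shared depth range. Cd28, the receptor for costimulation, averaged 1.99 and 3.28 (0.72, 0.29 to 1.13, but 0.41 on summed UMIs), while Cd44, the hyaluronan receptor of antigen-experienced cells, averaged 1.98 and 1.17 (-0.75, -1.28 to -0.23, but -0.03 relative to like span, -0.30 in cells without Ikzf2 and -0.32 in the shared depth range). Cd69, a marker of recent stimulation and of residency, averaged 3.19 and 3.60 (0.17, -0.18 to 0.51).

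Granule and chemokine genes came from few cells. Of 12 compared 3 were higher and 2 lower. Gzmb, the main granzyme of killer cells, averaged 0.384 and 0.931 (1.28, 0.27 to 2.07) with a UMI in 12.7% and 10.0% of cells. Ccl4, an inflammatory chemokine, averaged 0.23 and 2.85 (3.63), but 94.9% of the ATT-I UMIs came from 1 cell and its ratio was -0.05 without the highest cell of each library. Gzmc, a granzyme of strongly activated cells, averaged 7.17 and 5.81 (-0.30), with 0.71 in cells without and -4.18 in cells with a Mki67 UMI.

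Both chains of the integrin LFA-1 were lower in ATT-I, while 2 other trafficking genes, S1pr4 and Itgb7, were higher. Itgal, the alpha chain of LFA-1, ran from 0 to 19.7 with a median of 3.66 in vehicle and from 0 to 10.1 with a median of 1.71 in ATT-I. The mean was 4.92 and 2.24 (log2 ratio -1.14, -1.50 to -0.77). Its partner Itgb2 averaged 4.22 and 2.07 (-1.03, -1.39 to -0.66, but -0.53 relative to like span), and Itga4, the alpha chain of VLA-4, 4.22 and 2.55 (-0.73, but -0.008 relative to like span, -0.58 in the shared depth range and -0.57 with reduced totals). Prdm1, which encodes Blimp-1, a factor of residency and of effector fate, averaged 1.17 and 0.577 (-1.02, but -0.30 relative to like span). On the other side, S1pr4, a sphingosine-1-phosphate receptor, averaged 0.33 and 0.874 (1.40, 0.24 to 2.34), and Itgb7, the beta chain of gut-homing integrins, 1.23 and 2.27 (0.88, 0.32 to 1.40, but 0.52 in cells without Ikzf2 and 0.50 in cells without stromal markers). In the residency and trafficking list, which also holds Cxcr6 and Cxcr3, 4 of 16 genes were higher and 7 lower.

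**Figure D3:**
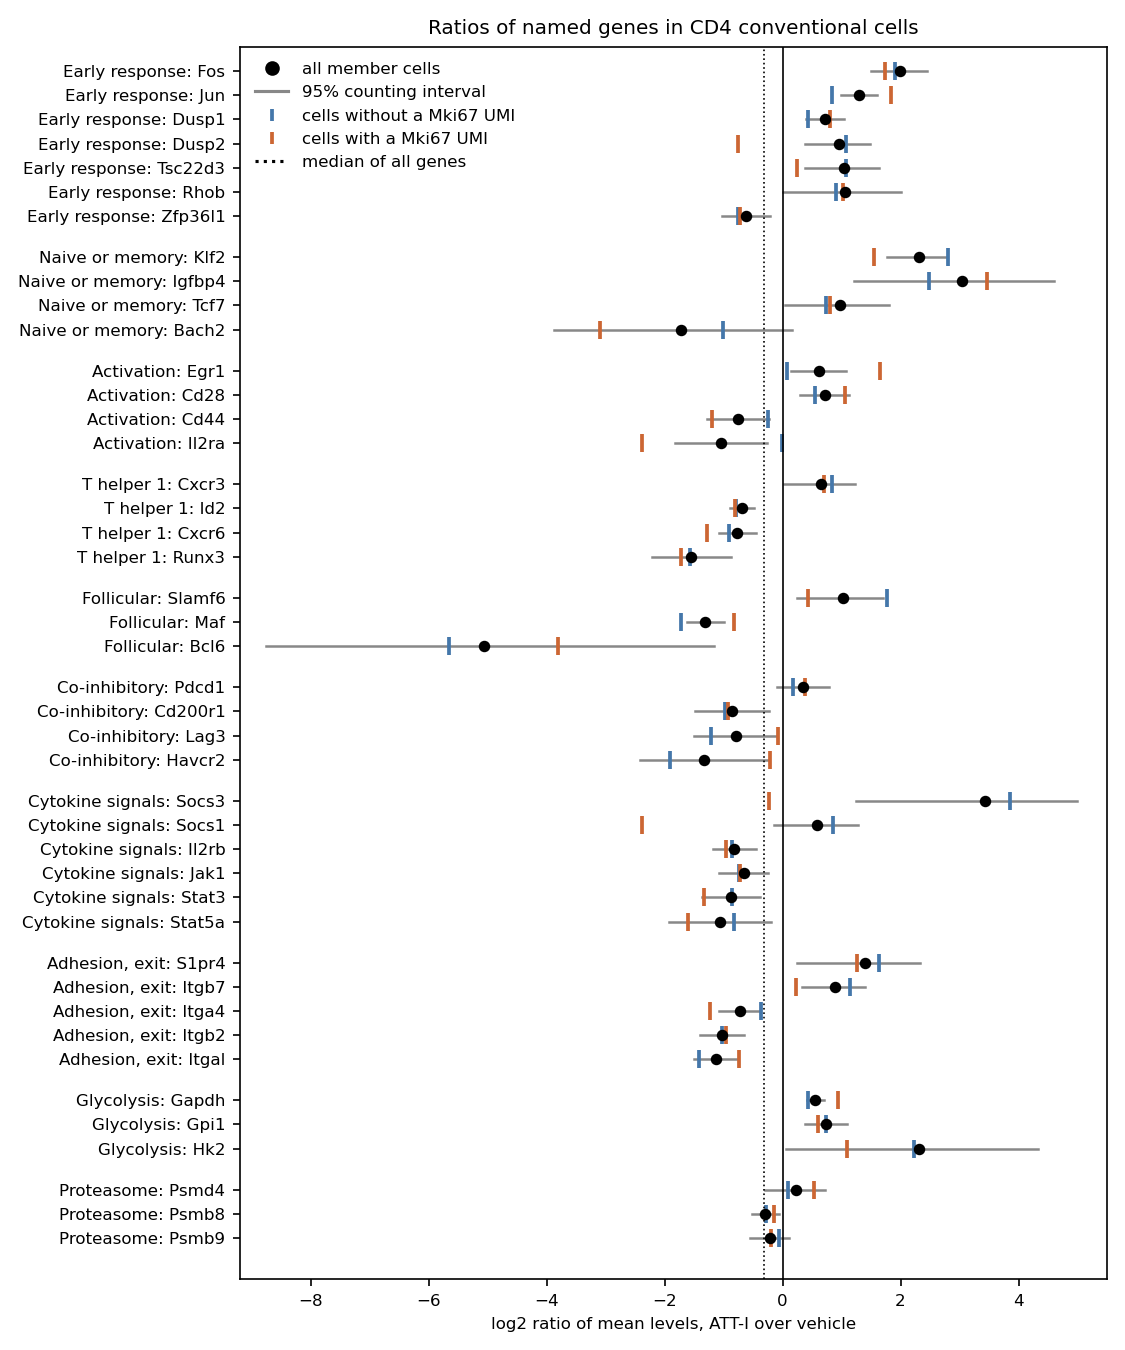
Log2 ratios of ATT-I over vehicle for named genes by function (horizontal axis), with the ratio over all CD4 conventional cells as a point, its 95% counting interval as a line, and ratios in cells without and with a Mki67 UMI as ticks. Fos and Klf2 lie right of 0 with both ticks, and Maf, Runx3 and Itgal lie left of it with both. The ticks of Dusp2 and Socs3 lie on opposite sides, but Socs3 held too few UMIs for comparison in cells with a Mki67 UMI.

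Interferon-stimulated genes depended on which cells were read. Over all members, 3 of 37 compared were higher and 13 lower (median log2 ratio -0.41), shares near those of all genes. In cells without a Mki67 UMI 8 of 32 were higher and 6 lower (median 0.00), where 11.4% of 4042 genes were higher and 33.5% lower (20.3% and 21.5% relative to their median gene), and in cells with one 2 of 33 were higher and 19 lower (median -0.71). Ifit3, an interferon-induced RNA-binding protein, averaged 0.782 and 1.42 (0.87, 0.10 to 1.56, but 0.04 in cells without Ikzf2 and 0.32 on summed UMIs). Its reads can be shared with the near-identical Ifit3b. Isg15, a ubiquitin-like modifier, averaged 2.50 and 2.29 (-0.12), with 0.65 in cells without and -1.08 in cells with a Mki67 UMI.

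Others were lower in both kinds of cell. Ifi203, a nucleic acid sensor of the p200 family, averaged 7.12 and 4.17 (-0.77, -1.06 to -0.49, but -0.55 with reduced totals and -0.45 relative to like span), Trim30a, a regulator of innate signals, 2.07 and 0.925 (-1.16, -1.76 to -0.56), and Usp18, which removes ISG15 and damps the interferon receptor, 0.569 and 0.174 (-1.71, -3.24 to -0.24). Ifit1bl1, a relative of Ifit1, had 38 UMIs in vehicle and 5 in ATT-I (-3.03, -4.79 to -1.22). CD8 cells had log2 ratios of -0.84, -1.12, -1.77 and -0.35 for these 4 genes.

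Antigen presentation genes, the theme of the series in tumour cells, differed little in these T cells. Of 18 MHC class I pathway genes compared, 0 were higher and 2 lower (median -0.31, near the -0.32 of all genes). H2-K1, a class I heavy chain, averaged 44.5 and 34.4 (-0.37), and B2m, its light chain, 45.4 and 31.1 (-0.55, -0.65 to -0.44). None of the 5 immunoproteasome genes passed 1.5-fold, with Psmb8, a catalytic subunit, at 8.85 and 7.22 (-0.29). Of 33 constitutive proteasome genes, 0 were higher and 3 lower (median -0.01). Psmd4, the ubiquitin receptor of the proteasome, averaged 1.58 and 1.85 (0.22, -0.30 to 0.72), at 0.09 in cells without and 0.53 in cells with a Mki67 UMI. Psmd11, a scaffold subunit, averaged 1.34 and 0.775 (-0.79, but from -0.57 to -0.29 in 4 repeats), and Psme4, the PA200 activator, 0.489 and 0.104 (-2.24, -3.66 to -0.45).

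Glycolysis and hypoxia genes were above the median gene. Of 20 compared, 4 were higher and 2 lower, but 12 and 0 relative to the median gene, with a median log2 ratio of 0.33. Gapdh averaged 15.3 and 22.5 (0.56, 0.41 to 0.70), short of 1.5-fold, and Gpi1, the isomerase that follows hexokinase, 2.64 and 4.42 (0.74, 0.38 to 1.09, but 0.56 in the shared depth range). Hk2, the inducible hexokinase, held 7 and 38 UMIs (2.30, 0.05 to 4.34). In cells with a Mki67 UMI 12 of 18 genes were higher and 2 lower (median 0.75), and in the others 4 of 18 higher and 1 lower (median 0.14).

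Unfolded protein response genes gave 4 higher and 1 lower of 15 (median 0.08), with 8 of 14 higher and 0 lower in cells with a Mki67 UMI (median 0.72) but 0 of 11 higher and 3 lower in the others (median -0.12). Heat shock genes gave 1 higher and 2 lower of 19 (median -0.06). Hspd1, the mitochondrial chaperonin, averaged 0.756 and 1.48 (0.97, 0.27 to 1.59), and Dnajb4, a co-chaperone of HSP70, 0.478 and 0.107 (-2.16, -3.93 to -0.33).

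Most ribosomal protein genes had ratios above 0, and fewer passed 1.5-fold. Of 78 compared, 31 were higher and 0 lower (71 and 0 relative to the median gene), 74 had a ratio above 0, and the median log2 ratio was 0.56. Their share of a cell's UMIs ran from 6.97% to 39.7% with a median of 21.0% in vehicle and from 11.5% to 50.7% with a median of 28.7% in ATT-I, and in CD8 cells the medians were 24.0% and 32.5%. Rplp0, a stalk protein of the large subunit, averaged 24.7 and 50.1 (1.02, 0.91 to 1.12), and Rps27, a protein of the small subunit, 49.0 and 86.9 (0.83). Since levels are shares of a cell's UMIs, a larger ribosomal share lowers the levels of all other genes, and with ribosomal, mitochondrial and histone genes left out of the totals the median gene had a log2 ratio of -0.14 in place of -0.32. Mitochondrially encoded genes took a median of 3.65% of UMIs in vehicle and 3.69% in ATT-I.

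Of 5 linker histone genes compared, 4 were higher and 0 lower in ATT-I (median 1.11). Hist1h1c averaged 1.23 and 2.62 (1.09, 0.56 to 1.56), Hist1h1d 0.488 and 1.88 (1.94, 1.13 to 2.50) and Hist1h1e 1.18 and 2.55 (1.11, 0.56 to 1.60). On summed UMIs Hist1h1c was at 0.53, Hist1h1e at 0.45 and Hist1h1d at 0.86, and in cells without stromal markers they were at 0.55, 0.57 and 0.85, so that the calls of Hist1h1c and Hist1h1e end there. Linker histones bind the DNA between nucleosomes, whereas core histones form the nucleosome. Of 35 core histone genes, 13 were higher and 10 lower (median 0.14). Hist1h2ap averaged 7.28 and 3.74 (-0.96), but 14.9 and 15.7 in cells with a Mki67 UMI (0.08) and a ratio of 1.001 within the depth range shared by the libraries. Histone genes are near-identical copies whose reads can be shared, so single copies are uncertain.

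**Figure D4:**
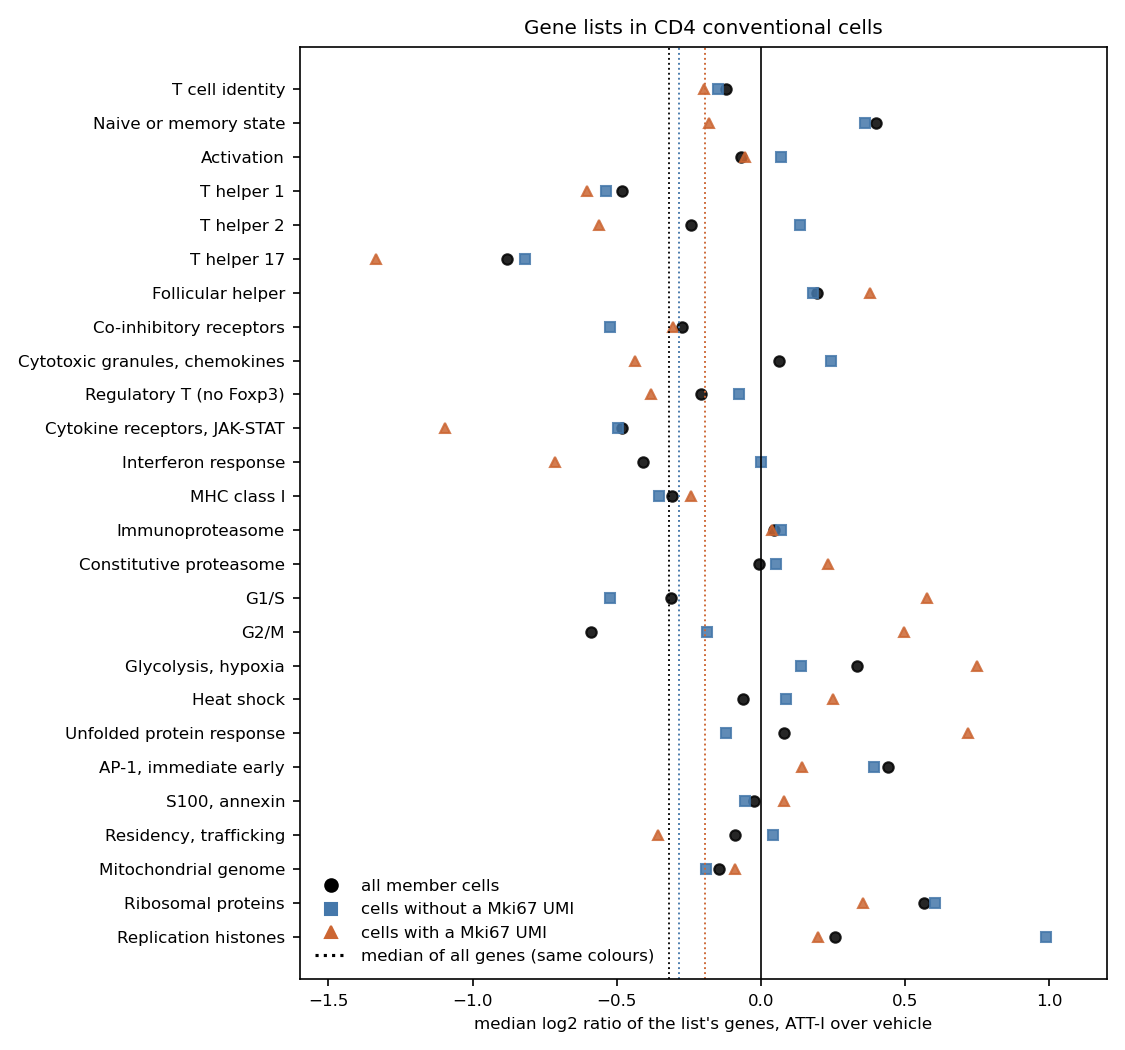
Median log2 ratio of ATT-I over vehicle (horizontal axis) of each gene list in CD4 conventional cells, over all cells (circles), cells without a Mki67 UMI (squares) and cells with one (triangles), with dotted lines at the median of all genes. Ribosomal and immediate early genes lie right of 0 in each kind of cell, T helper 1 and cytokine signalling genes left of it, and G1/S and G2/M genes are left of 0 over all cells but right of it (0.57 and 0.50) in cells with a Mki67 UMI.

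Cells were also divided by depth. At the median depth of all 145 members, 6809 UMIs, 19 vehicle and 54 ATT-I cells were at or under it (shallow cells, medians 5385 and 4496 UMIs) and 36 and 36 above it (deep cells, 8946 and 8903 UMIs). A Mki67 UMI was found in 31.6% of vehicle and 5.56% of ATT-I shallow cells, and in 55.6% and 38.9% of deep cells. The deep cells are alike in number and median depth.

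Ratios of the genes given next were below 0 among shallow and among deep cells. Maf averaged 9.62 and 3.24 in shallow cells (log2 ratio -1.57) and 6.13 and 2.51 in deep ones (-1.29). Runx3 had ratios of -1.93 and -1.29, Itgal -1.16 and -1.04, Id2 -0.69 and -0.68, and B2m -0.62 and -0.56, the last within 1.5-fold. Bcl6 had 28 and 2 UMIs in deep cells (-4.00) and 2 and 0 in shallow ones, too few for a fold.

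Several genes higher in ATT-I were so mainly in shallow cells. Fos averaged 1.26 and 7.55 there (2.59) but 1.45 and 2.47 in deep cells (0.77), and Klf2 0.688 and 7.08 (3.36) but 1.37 and 3.49 (1.35). Socs3 had 0 UMIs in the 19 shallow vehicle cells and 36 in the ATT-I ones, at least 2.29 higher on the log2 scale, but 7 and 9 UMIs in deep cells (0.28). Igfbp4 had 0 and 51 UMIs in shallow cells (2.47 against the same floor) and 6 and 6 in deep ones. One shallow ATT-I cell stood at 49.5 UMIs per 10000, where the mean of the shallow ATT-I cells was 1.83. Tcf7 and Slamf6 had ratios of 1.93 and 1.84 in shallow cells but 0.07 and 0.12 in deep ones. In this split Jun (1.196 and 0.997), Itgb7 (0.70 and 1.01), Gapdh (0.60 and 0.71) and Rplp0 (1.15 and 1.03) differed less between them.

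By list, the resting and recirculating genes had a median of 1.58 over 9 genes compared in shallow cells and of -0.44 over 13 in deep cells, and the interferon genes -0.08 over 26 and -1.23 over 35. The immediate early median was 0.60 over 21 genes and 0.23 over 24, the ribosomal one 0.69 and 0.42, and the T helper 1 one -0.62 and -0.43. The median of all genes was -0.24 in each. Whether shallow and deep cells differ was not tested, and depth, cell size and cell state cannot be told apart here.

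Outside the lists, the 10 highest and 10 lowest ratios with at least 20 UMIs on the higher side and an interval clear of 0 were read. Gadd45g, a stress and cytokine-induced regulator, averaged 0.161 in vehicle and 1.01 in ATT-I (2.65, 0.93 to 4.18). Its ratio was 0.32 in cells with a Mki67 UMI and 4.65 in the others, where vehicle held 1 UMI of it. Cxcl10, an interferon-induced chemokine, averaged 0.154 and 0.879 (2.52), although CD8 cells had -2.36, and Ramp3, a subunit of adrenomedullin receptors, 0.161 and 0.73 (2.18). Gadd45g, Cxcl10 and Ramp3 each held only 9 UMIs in vehicle. Mt1, a metallothionein, averaged 0.259 and 1.13 (2.13, but 0.88 without the highest cell of each library and 0.39 in the shared depth range). The other higher genes were Adk, Lamp1, Gm17018, Cd9, Rasgrp2 and Epb41l4aos, with ratios from 2.01 to 1.47.

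The lowest of the remaining ratios came from genes with few ATT-I UMIs. Ralgapa2, a subunit of the Ral GTPase-activating complex, had 22 and 4 UMIs (-4.37, -7.76 to -0.79), and Parp12, an interferon-induced mono-ADP-ribosyltransferase, 23 and 5 (-3.13, -5.89 to -0.34, but 0.16 in cells without stromal markers). Chn2, a Rac GTPase-activating protein, had 24 and 4 (-2.93), and Diaph3, a formin of dividing cells, 48 and 13 (-2.91, but 0.25 in cells without stromal markers). Gm26825 had 24 UMIs in vehicle and 0 in ATT-I. Its log2 ratio was -3.01 with a floor of 3 UMIs over the library in place of the 0, and the interval reached up to -1.02. The others were Gm49336, Polk, Dcaf10, Usp45 and Rmnd5a, with ratios from -3.53 to -2.95.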

How the data were processed

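The authors deposited natural log normalized values for 13518 genes in 13213 cells, per the file headers and values, and Cell Ranger, Seurat and the build mm10 are named in the submitters' processing notes, with versions not given in the sources used here. Each deposited value equals the natural log of 1 plus UMIs per 10000 less a constant of its library (0.247 in vehicle, 0.153 in ATT-I), with values below 0 set to 0. UMIs were recovered from this relation, and all values came out whole within 0.02. The reason for the constant is not given in the sources used here, and in 2 vehicle members genes with 1 UMI were lost to it.

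Levels, ratios and counting intervals (gamma intervals of each weighted sum, combined on the log scale) were computed with Python 3.11.15, numpy 2.4.6, scipy 1.17.1 and pandas 2.3.3, and figures with matplotlib 3.10.9. The code was tested on simulated counts that held counting error only, with no further spread between cells. There is 1 library per group, so no test was made. Cells were thinned to 4000 UMIs for shares, leaving out shallower cells. No doublet caller was run. Genes were annotated for span in 99.3% of those compared. The members and gene lists were chosen with earlier results of these data known. Named genes are list genes past 1.5-fold, Psmd4, Cd4, Foxp3, Mki67, and outside the lists the 10 highest and 10 lowest ratios whose interval excludes 0 with at least 20 UMIs on the higher side. List genes named within 1.5-fold, and those not compared, were chosen after their values were seen. Some listed genes are not reported here.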

Additional observations from a re-analysis of the deposited data

Results flagged for a closer look

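In 4 genes the counting intervals excluded 0 on opposite sides in CD4 conventional cells without and with a Mki67 UMI, and the difference between these cells was not tested. Ccl5, an inflammatory chemokine, averaged 24.3 UMIs per 10000 in vehicle and 17.6 in ATT-I without Mki67 (log2 ratio -0.47), and 7.31 and 14.4 with it (0.98). Hsp90ab1, a constitutive HSP90, averaged 15.5 and 12.8 without (-0.28) and 15.9 and 18.4 with a Mki67 UMI (0.22). Mcl1, a survival factor of the BCL-2 family, averaged 2.50 and 3.82 without (0.61) and 3.12 and 1.89 with it (-0.73). Nkg7, a protein of cytotoxic granules, averaged 4.85 and 6.43 without (0.41) and 3.40 and 2.16 with it (-0.66). The cells with a Mki67 UMI number 26 in vehicle and 17 in ATT-I.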

How the results depend on the processing

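The 104 genes past 1.5-fold that were repeated were mostly ones whose interval excluded 0. Under the alternatives 1135 of their values differed by less than their counting error, 87 by more, and 22 had another sign (17 genes). Of the 104 genes, 52 came under 1.5-fold in at least 1 alternative. Of the counts, shares and list medians 331 held, 15 moved and 2 changed sign. The count of higher genes (520) was 225 with a UMI required in 25% of cells, 899 with mitochondrial, ribosomal and histone genes left out of the totals, and 1071 relative to genes of like span. The count of lower genes (2343) was 1117 without cells holding an Ikzf2 UMI, 942 without cells holding fibroblast, epithelial or endothelial UMIs, and 1139 relative to like span. The G2 and mitosis median (-0.59) became 0.21 without Ikzf2 cells and 0.42 at the vehicle share of Mki67. Without those genes in the totals the mitochondrial median was 0.031 and the ribosomal one 0.77. Without cells holding fibroblast, epithelial or endothelial UMIs the resting and recirculating median was 1.89 and the T helper 17 one -0.19. Relative to like span the T cell identity median was 0.19, the T helper 17 one -0.18 and the S100 and annexin one 0.31. Without Ikzf2 cells the members were 14.8% of vehicle and 18.9% of ATT-I cells. Signs changed within the shared depth range (53 ATT-I and 38 vehicle cells) for Hist1h2ab (1.32), Hist1h2ae (0.70), Hist1h2ap (1.001) and Socs2 (-0.23). They changed without Ikzf2 cells for Csf2 (0.39), Il21r (0.41), Il2ra (0.51), Lag3 (0.50), Tpx2 (0.25) and Uhrf1 (1.21). Without cells holding fibroblast, epithelial or endothelial UMIs they changed for Bach2 (0.57), Csf2 (0.59), Diaph3 (0.25), Il2ra (0.82), Jak1 (0.046), Lag3 (0.29), Parp12 (0.16), Rora (0.11), Socs1 (-0.0046) and Stat5a (0.0094). At the vehicle share of Mki67 Hist1h2ap was at 0.12, and relative to like span Jak1 was at 0.066. The cause of these changes was not tested. The median of all genes ran from -0.36 to -0.14 over the alternatives. The repeats without the epithelial cell, without cells holding fibroblast, epithelial or endothelial UMIs, at the vehicle share of Mki67, without cells whose 1-UMI genes were lost, and relative to like span were chosen after seeing the data. A repeat without all cells holding red blood cell, fibroblast, epithelial or endothelial UMIs was not run, since 0 ATT-I and 20 vehicle cells were left. No paired analysis was possible because each group is a single library, and the replicate number 1 that all groups carry was given in accession order and pairs nothing. Depth limits genes with few UMIs, whose intervals are wide, and differences between mice could not be measured.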

Other observations

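Genes of calcium-binding S100 proteins and annexins were close to level in CD4 conventional cells, with 1 higher and 1 lower of 16 compared (median log2 ratio -0.02). Ahnak, a large scaffold protein bound by S100A10, averaged 8.11 UMIs per 10000 in vehicle and 4.78 in ATT-I (-0.76, 95% counting interval -1.02 to -0.51, but -0.04 relative to genes of like span, -0.44 without cells holding fibroblast, epithelial or endothelial UMIs and -0.54 without cells holding an Ikzf2 UMI), and S100a6, a calcium sensor, 6.69 and 10.0 (0.58, 0.37 to 0.79). Among long non-coding RNAs, chosen after their values were seen, Kcnq1ot1, the imprinted antisense RNA of Kcnq1, averaged 3.54 and 0.921 (-1.94, -2.45 to -1.40) and Malat1, a nuclear RNA, 253 and 216 (-0.23).

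Some genes fell under the limits for comparison or came from 1 cell, and were also chosen after their values were seen. Tigit, a co-inhibitory receptor, had 9 UMIs in 9 of 55 vehicle cells (16.4%) and 0 in 90 ATT-I cells, which allows up to 3.33% of cells with a UMI and sets no limit on cells expressing the gene at this depth. Gzma, a granzyme, had 1 UMI in vehicle and 73 in ATT-I, of which 68.5% came from 1 cell. Ly6c2, a surface protein of memory and effector cells, had 67 and 7 UMIs, and 1 cell held 91.0% of the vehicle UMIs. Atf3, a stress-induced factor, had 0 and 38 UMIs with 89.5% in 1 ATT-I cell, and all 13 UMIs of Il10 came from 1 ATT-I cell.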
